A study of Mus musculus with 16 samples.

Results

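The genes described here run chromosome duplication and cell division. They were chosen by name: 47 genes of DNA replication and mitosis were listed, and the rows of the deposited table whose Ensembl identifier maps to one of them were kept. Of the 47, 44 had a row among the 13006 genes of the table, and all 44 passed the filter on low counts. They were sorted by role into 27 mitotic genes, of which 25 were measured, and 20 S-phase genes, of which 19 were measured. Cdc6, a loader of the replicative helicase, Bub1, a spindle checkpoint kinase, and Cenpf, a kinetochore protein, had no matched row and were not analysed here.

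Poly(A) RNA was sequenced from whole mouse liver in 16 libraries, 4 in each of 4 groups, and every group carried the genotype Humanized PXR-CAR-CYP3A4/3A7, in which drug-sensing nuclear receptors and their target enzymes are human by label. The EM group received EE (ethinylestradiol, a synthetic estrogen used to induce cholestasis in rodents) at 10 mg/kg under the skin for 7 days, and also MI763F, a ligand of the constitutive androstane receptor (CAR), given by gavage on 6 days, starting on day 2, at 2.5 mg/kg. The EV group received EE alone, the CM group MI763F alone, and the CV group the propylene glycol vehicle. Whether the EV and CV mice were gavaged with a vehicle is not stated, and neither sex nor age of the mice is given. Since the labels name no animal behind a library, the p-values measure the spread between libraries, which may be technical.

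A dividing cell first licenses and fires replication origins with the MCM helicase, supplies deoxynucleotides and copies its DNA in S phase, and then condenses and separates its chromosomes under CDK1, the Aurora and Polo kinases and the anaphase-promoting complex. Genes of S phase are classically switched on through E2F sites, and genes of G2 and mitosis through a cell cycle homology region (CHR) and CCAAT boxes, which the MuvB core, B-MYB, FOXM1 and NF-Y read. In adult liver most hepatocytes rest outside the cycle and can re-enter it after injury, while Kupffer cells and other resident cells can divide too.

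Promoter sequence is a property that the choice of genes did not use, and it differed between the roles. Windows from 250 bases before to 50 after the start site were taken from the RefSeq table of build GRCm38.p6, which held 38 of the 47 listed genes by symbol, the unmeasured Cdc6, Bub1 and Cenpf included. The searched letters were TTTGAA or TTCGAA for the CHR, CCAAT for the CCAAT box, and TTTGGCGC, TTTCCCGC, TTTGCCGC or TTTCGCGC for the E2F site, on both strands, where the E2F letters of one strand can overlap those of the other. A CHR match lay in 16 of 21 mitotic genes (76.2%), in 3 of 17 S-phase genes (17.6%) and in 21.7% of all 27025 genes of the table. An E2F match lay in 1 of 21 mitotic genes (4.76%), in 8 of 17 S-phase genes (47.1%) and in 2.6% of all genes. CCAAT was found in 18 of 21 mitotic genes (85.7%), in 11 of 17 S-phase genes (64.7%) and in 41.1% of all genes. Each of the 16 mitotic genes with a CHR match also held CCAAT, and each had a CHR match no farther than 100 bases before the start. Such matches are descriptions of letters, not of bound sites.

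The 5 promoters printed next show these arrangements, each from 150 bases before to 50 bases after the start on the strand of the gene, with matches to the CHR, CCAAT and E2F letters of either strand in capitals. Ccnb2 encodes cyclin B2, Cdk1 the mitotic kinase it activates, Plk1 the Polo kinase of mitotic entry, Mcm6 a subunit of the replicative helicase and Tk1 thymidine kinase. They lie at chr9:70421505-70421704 on the minus strand (Ccnb2), chr10:69352863-69353062 on the minus strand (Cdk1), chr7:122159285-122159484 on the plus strand (Plk1), chr1:128359656-128359855 on the minus strand (Mcm6) and chr11:117825965-117826164 on the minus strand (Tk1).
Ccnb2: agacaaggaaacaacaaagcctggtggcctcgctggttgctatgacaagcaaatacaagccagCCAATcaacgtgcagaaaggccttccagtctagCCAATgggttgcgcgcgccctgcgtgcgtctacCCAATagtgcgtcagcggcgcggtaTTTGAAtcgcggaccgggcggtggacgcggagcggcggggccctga
Cdk1: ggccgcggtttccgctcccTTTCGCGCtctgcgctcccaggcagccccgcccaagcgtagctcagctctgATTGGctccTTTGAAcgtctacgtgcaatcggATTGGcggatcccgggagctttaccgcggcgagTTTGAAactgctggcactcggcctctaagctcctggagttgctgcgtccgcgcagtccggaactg
Plk1: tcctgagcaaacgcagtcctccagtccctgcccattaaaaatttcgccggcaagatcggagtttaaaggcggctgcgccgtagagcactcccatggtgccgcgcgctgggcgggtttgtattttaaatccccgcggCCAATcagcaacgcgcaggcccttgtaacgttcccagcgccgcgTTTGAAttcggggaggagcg
Mcm6: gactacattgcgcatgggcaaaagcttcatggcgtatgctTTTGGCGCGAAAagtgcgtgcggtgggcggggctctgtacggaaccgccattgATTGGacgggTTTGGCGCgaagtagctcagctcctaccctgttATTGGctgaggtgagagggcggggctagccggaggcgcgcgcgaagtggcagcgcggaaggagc
Tk1: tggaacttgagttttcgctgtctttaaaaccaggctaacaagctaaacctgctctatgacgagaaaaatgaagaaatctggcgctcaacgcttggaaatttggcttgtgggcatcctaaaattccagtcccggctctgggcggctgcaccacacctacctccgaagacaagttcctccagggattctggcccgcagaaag
In Ccnb2 the CCAAT matches began 87, 54 and 21 bases before the start and a CHR match 4 bases after it. In Cdk1 CHR matches began 71 and 15 bases before the start, and an E2F match 131 bases before it. Plk1 had a CCAAT match 14 bases before the start and a CHR match 30 bases after it. Mcm6 had E2F matches and CCAAT but no CHR match, and Tk1 had none of these letters in the window.

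**Figure D1:**
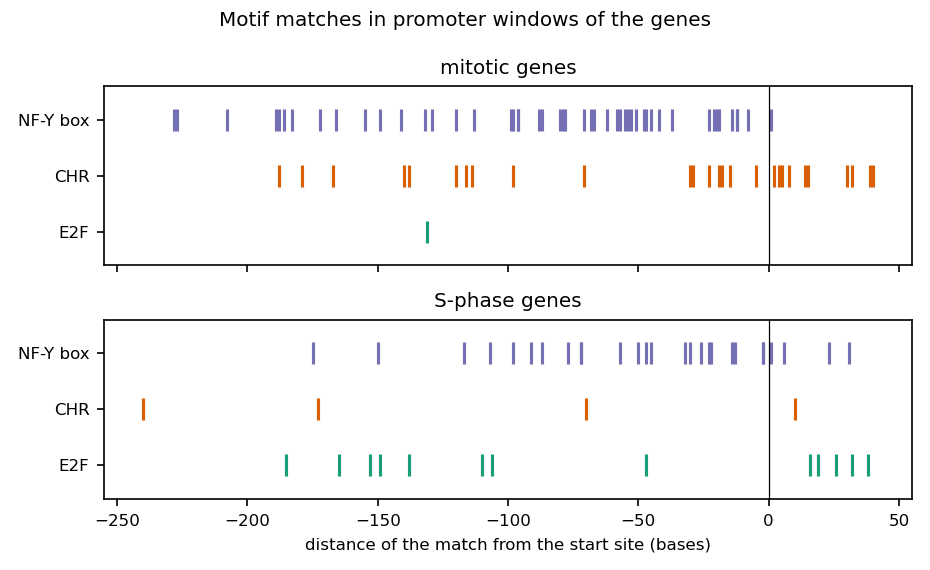
Distance in bases of each motif match from the start site (x axis) for mitotic genes (upper panel) and S-phase genes (lower panel), with a row of ticks each for the NF-Y box (the letters CCAAT), the CHR and the E2F site, and a vertical line at the start. Most CHR ticks lie in the mitotic panel, where 16 of 21 genes have a match, and most E2F ticks in the S-phase panel, where 8 of 17 genes have one.

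The library EM replicate 1 stood apart from its group. Library totals ran from 14115384 to 21473227 estimated counts, and on the first principal component of all genes EM replicate 1 lay at 62.6, against 37.1 to 46.7 for the other 3 EM libraries and 66.7 to 75.4 for the EV libraries. It was the highest EM library for 42 of the 44 genes, against 31.3% of all genes, and it lay above every EV library for 34 of the 44, against 26.4% of all genes. Its Cyp2b10, a CAR target, was at 294 CPM (estimated counts scaled to a common library size and composition), within the range of the other EM libraries (256 to 324) and above the EV libraries (57.6 to 114). Its Sult2a1, a sulfotransferase that CAR and PXR ligands induce, was at 89.8 CPM, against 445 to 559 CPM in the other EM libraries and 12.0 to 25.8 CPM in the EV libraries. The counts of calls that use the EM group are therefore given with and without this library. It was singled out in part by its high values of these same genes, so leaving it out lowers the EM group by choice. The p-values without it do not allow for that choice.

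The tissue label was checked against markers, and the marker levels moved with EE. All 10 hepatocyte markers had a row, and their summed level was 38200 to 54700 CPM in EM, 34100 to 42200 CPM in EV, 83700 to 111000 CPM in CM and 87100 to 112000 CPM in CV libraries. The 13 macrophage markers summed to 1910 to 3170 CPM in EM, 2310 to 2700 CPM in EV, 400 to 814 CPM in CM and 388 to 996 CPM in CV libraries. EM replicate 1 had the highest macrophage sum and the lowest hepatocyte sum of its group. No marker with a row was at 0 in every library. In EV against CV, the edgeR test named in the next paragraph called 10 of 13 macrophage markers higher, 5 of 8 lymphocyte and neutrophil markers higher, 6 of 11 endothelial markers higher, 4 of 12 stellate markers higher and 1 lower, 2 of 5 cholangiocyte markers higher, 5 of 6 erythroid markers higher and 1 lower, and 1 of 10 hepatocyte markers higher and 8 lower, against 25.5% of all genes called higher and 24.9% called lower. The stellate count lies near that share. In whole liver, more or fewer cells of a type and more or less RNA per cell cannot be told apart, and the part of these cell types in the results that follow was not tested.

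EE alone raised nearly the whole machinery of replication and division. In EV against CV, 40 of the 44 genes were higher, 1 was lower and 3 did not pass the quasi-likelihood test of edgeR (p adjusted by Benjamini-Hochberg over all 12918 genes tested, threshold 0.05), against 25.5% of all genes called higher and 24.9% called lower. The median log2 fold change was 3.90 over the 25 mitotic genes, of which 24 were higher, and 1.65 over the 19 S-phase genes, of which 16 were higher and 1 lower, against 0.00 over all genes tested. For 39 of the 44 genes every EV library lay above every CV library, and for 1 gene every EV library lay below, against 24.6% and 22.7% of all genes. With library totals as the scale, 41 of the 44 genes were higher and 0 lower, against 54.6% and 10.3% of all genes.

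**Figure D2:**
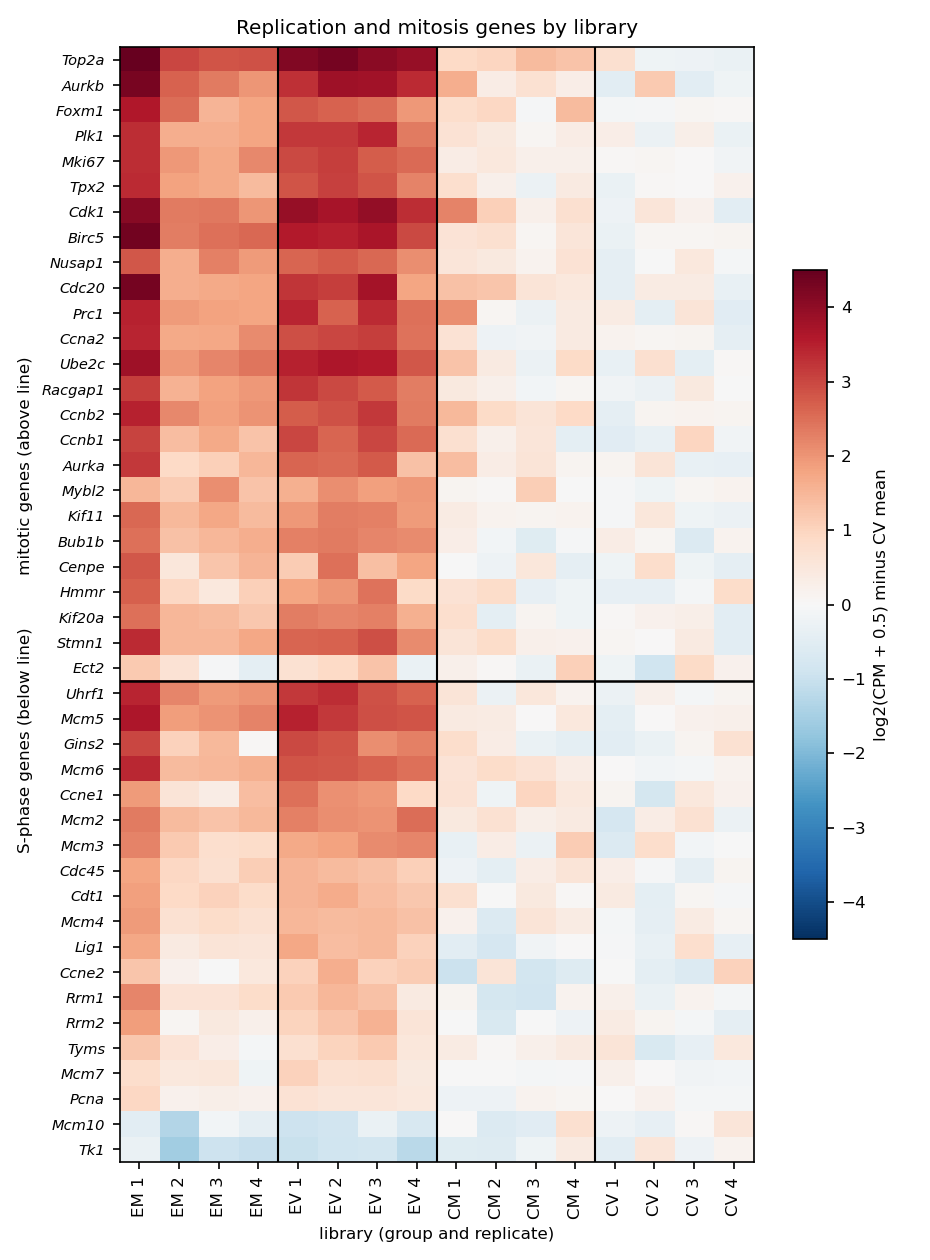
Level of each of the 44 genes (rows) in each library (columns, by group and replicate) as log2(CPM + 0.5) minus the mean of the CV libraries, with mitotic genes above the horizontal line and S-phase genes below it. The EV columns and EM replicate 1 are mostly the darkest red in the mitotic block, the other 3 EM columns are paler, and the EE columns of Tk1 and Mcm10 are mostly blue.

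Among the proliferation markers, Mki67 encodes the Ki-67 protein that coats mitotic chromosomes. Mki67 stood at 4.87, 5.45, 4.11 and 3.52 CPM in the EV libraries, against 0.213, 0.229, 0.206 and 0.118 CPM in the CV libraries. The groups did not overlap, and the log2 fold change was 4.52 ± 0.43 (SE, n = 4 each, edgeR adjusted p = 6.94e-07). Top2a, the topoisomerase that untangles sister chromatids, averaged 15.3 ± 1.79 CPM in EV and 0.453 ± 0.363 CPM in CV libraries (SD, n = 4 each), and its log2 fold change of 5.08 ± 0.52 (SE) was the largest of the 44.

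The mitotic cyclins, their kinase and their transcription factors were higher in all 6 of 6 cases, against 25.5% of all genes called higher. Cdk1 stood at 19.9, 17, 20.5 and 12.9 CPM in the EV libraries, against 0.641, 1.45, 1.03 and 0.472 CPM in the CV libraries. Its log2 fold change was 4.30 ± 0.62 (SE, edgeR adjusted p = 4.74e-05). Cyclin B1 (Ccnb1), which activates CDK1 for entry into mitosis, averaged 5.20 ± 0.97 CPM in EV and 0.390 ± 0.478 CPM in CV libraries (SD). Cyclin A2 (Ccna2), which acts in S phase and G2, had a log2 fold change of 3.91 ± 0.51 (SE). Foxm1, the transcription factor of the G2 and mitosis programme, was at 3.67, 3.26, 2.96 and 1.84 CPM in the EV libraries, against 0.0712, 0.0764, 0.137 and 0.118 CPM in the CV libraries. The CV values of Foxm1 correspond to very few counts, and its log2 fold change of 4.75 ± 0.72 (SE, edgeR adjusted p = 6.13e-05) carries a wide error.

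Genes of the spindle and its control followed. All 4 measured mitotic kinases and checkpoint genes and both genes of the anaphase-promoting complex (Cdc20 and Ube2c) were higher. So were 10 of 11 genes of the spindle, centromere and cytokinesis, against 25.5% of all genes called higher. Aurkb, the kinase of the chromosomal passenger complex, was at 6.31, 9.38, 9.06 and 6.62 CPM in the EV libraries, against 0, 1.07, 0 and 0.118 CPM in the CV libraries. Birc5 (survivin), a partner of Aurora B, had a log2 fold change of 4.29 ± 0.48 (SE, edgeR adjusted p = 3.72e-06). Racgap1, a part of the centralspindlin complex of cytokinesis, had one of 3.86 ± 0.45 (SE, edgeR adjusted p = 5.12e-06). Stmn1 (stathmin), which destabilises microtubules, was at 45.1, 46.3, 54.0 and 31.9 CPM in the EV libraries, against 7.33, 6.88, 9.21 and 4.78 CPM in the CV libraries, the groups again apart. Ect2, the exchange factor that switches on RhoA at the division plane, was the only measured mitotic gene that did not pass. Ect2 stood at 2.37, 2.77, 3.8 and 0.946 CPM in the EV libraries, against 1.07, 0.458, 2.75 and 1.53 CPM in the CV libraries, overlapping ranges with an edgeR adjusted p of 0.291.

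Of the 10 measured S-phase genes of origin licensing and the helicase 9 were higher, against 25.5% of all genes called higher. The median log2 fold change of the 10 was 1.91. Mcm5, a subunit of the MCM2-7 helicase, was at 12.4, 10.2, 8.27 and 7.72 CPM in the EV libraries, against 0.356, 0.688, 0.825 and 0.884 CPM in the CV libraries. No value overlapped, and the log2 fold change was 3.79 ± 0.42 (SE, edgeR adjusted p = 3.25e-06). The subunits Mcm6 and Mcm2 gave 3.15 ± 0.42 (SE) and 2.59 ± 0.38 (SE) on the same log2 scale. Mcm7, another subunit of the same ring, had a log2 fold change of 0.75 ± 0.18 (SE, edgeR adjusted p = 0.00254). Within the MCM ring the log2 fold changes thus ran from 0.75 for Mcm7 to 3.79 for Mcm5. In the CV libraries Mcm7 averaged 12.2 CPM and Mcm5 0.688 CPM. Mcm7 shares exon bases with Cops6 and Ap4m1 on the opposite strand, and the part of this overlap in its values was not tested.

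The genes of the fork and of cyclin E varied. Uhrf1, which carries DNA methylation to the new strand, had the largest change of the S-phase genes, a log2 fold change of 4.70 ± 0.57 (SE, edgeR adjusted p = 6.80e-06). Pcna, the sliding clamp of the polymerases, was at 52.1, 48.4, 47.6 and 45.4 CPM in the EV libraries, against 32.8, 37.6, 30.4 and 30.6 CPM in the CV libraries. Its ranges did not overlap, although the log2 fold change was only 0.56 ± 0.15 (SE, edgeR adjusted p = 0.00590). Ccne1 (cyclin E1), which with CDK2 starts S phase, had a log2 fold change of 2.78 ± 0.70 (SE, edgeR adjusted p = 0.00386). Ccne2 (cyclin E2) stood at 2.13, 3.45, 2.11 and 2.31 CPM in the EV libraries, against 0.783, 0.458, 0.344 and 2.12 CPM in the CV libraries. CV replicate 4 alone reached the EV range, and the log2 fold change of 1.41 ± 0.63 (SE) had an edgeR adjusted p of 0.0770. That edgeR adjusted p was 0.0125 without CV replicate 4 and 0.0358 without CM replicate 2, and it was 0.0206 with library totals as the scale.

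Of the 4 genes of nucleotide supply 3 rose and 1 fell, with a median log2 fold change of 1.00. Of all genes, 25.5% were called higher and 24.9% lower. Rrm2, the regulatory subunit of ribonucleotide reductase, was at 10.8, 13.3, 16 and 7.88 CPM in the EV libraries, against 6.76, 5.65, 4.81 and 3.77 CPM in the CV libraries. Its groups did not overlap, with a log2 fold change of 1.19 ± 0.37 (SE, edgeR adjusted p = 0.0151). Tyms, thymidylate synthase, was at 14.8, 17.9, 20.5 and 12.8 CPM in the EV libraries, against 13.2, 5.27, 6.60 and 12.4 CPM in the CV libraries. Those ranges overlapped, and the edgeR adjusted p of 0.0357 became 0.0999 without CV replicate 2, 0.0996 without CV replicate 3, 0.0510 without EV replicate 1, 0.0797 without EV replicate 2 and 0.103 without EV replicate 3. Tk1, the salvage enzyme of thymidine, was at 21.6, 23.1, 24.6 and 18.8 CPM in the EV libraries, against 31.2, 64.6, 37.4 and 48.8 CPM in the CV libraries. Every EV value of Tk1 lay below every CV value, and Tk1 fell by 1.05 ± 0.28 on the log2 scale (SE, edgeR adjusted p = 0.00605).

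The fall of Tk1 has limits. On library totals, which shift the median of all genes in EV against CV by 0.49 on the log2 scale, its edgeR adjusted p was 0.0957. Exons of Tk1 also overlap those of Afmid, which encodes kynurenine formamidase, on the opposite strand. Afmid averaged 29.0 ± 5.07 CPM in EV and 129 ± 25.9 CPM in CV libraries (SD, n = 4 each), a log2 fold change of -2.15 ± 0.23 (SE, edgeR adjusted p = 2.30e-06). Whether counting used strand is not given in the sources used here, so reads from the bases that both genes share may not have been told apart. The length of that stretch was not measured, and its part in the fall of Tk1 was not tested. In all, 13 of the 47 listed genes share exon bases with another protein-coding gene, 12 of them on the opposite strand, Ccna2, Ccne2, Cdc20 and Mcm7 among them. Mcm10, a scaffold of the firing origin, also ran low: it was at 11.7, 12.4, 18.4 and 13.8 CPM in the EV libraries, against 19.5, 17.4, 23.8 and 33.5 CPM in the CV libraries. Only EV replicate 3 reached the CV range, and the edgeR adjusted p was 0.0592. Mcm10 was called lower by DESeq2 (adjusted p = 0.0328) and by edgeR in a fit of the EV and CV libraries alone (adjusted p = 0.0168). The edgeR adjusted p over all groups lay between 0.0278 and 0.0498 without CV replicate 2, CM replicate 2, CM replicate 4, EV replicate 3 or EM replicate 2, each left out in turn, and between 0.0571 and 0.193 without any other library.

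Many folds of mitotic genes were set against few counts. Of the mitotic genes, 23 of 25 averaged under 1 CPM in the CV libraries, with a median of 5 estimated counts per library (range 0 to 134), and of the S-phase genes 6 of 19 did. Among the measured S-phase genes with a promoter window, the 7 with an E2F match had a median log2 fold change of 2.09 (range 0.75 to 4.70), and the 9 without one had 1.19 (range -1.05 to 2.78). Among mitotic genes the 14 with a CHR match had a median of 3.88 and the 5 without one 3.71. These splits are descriptions with no test.

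**Figure D3:**
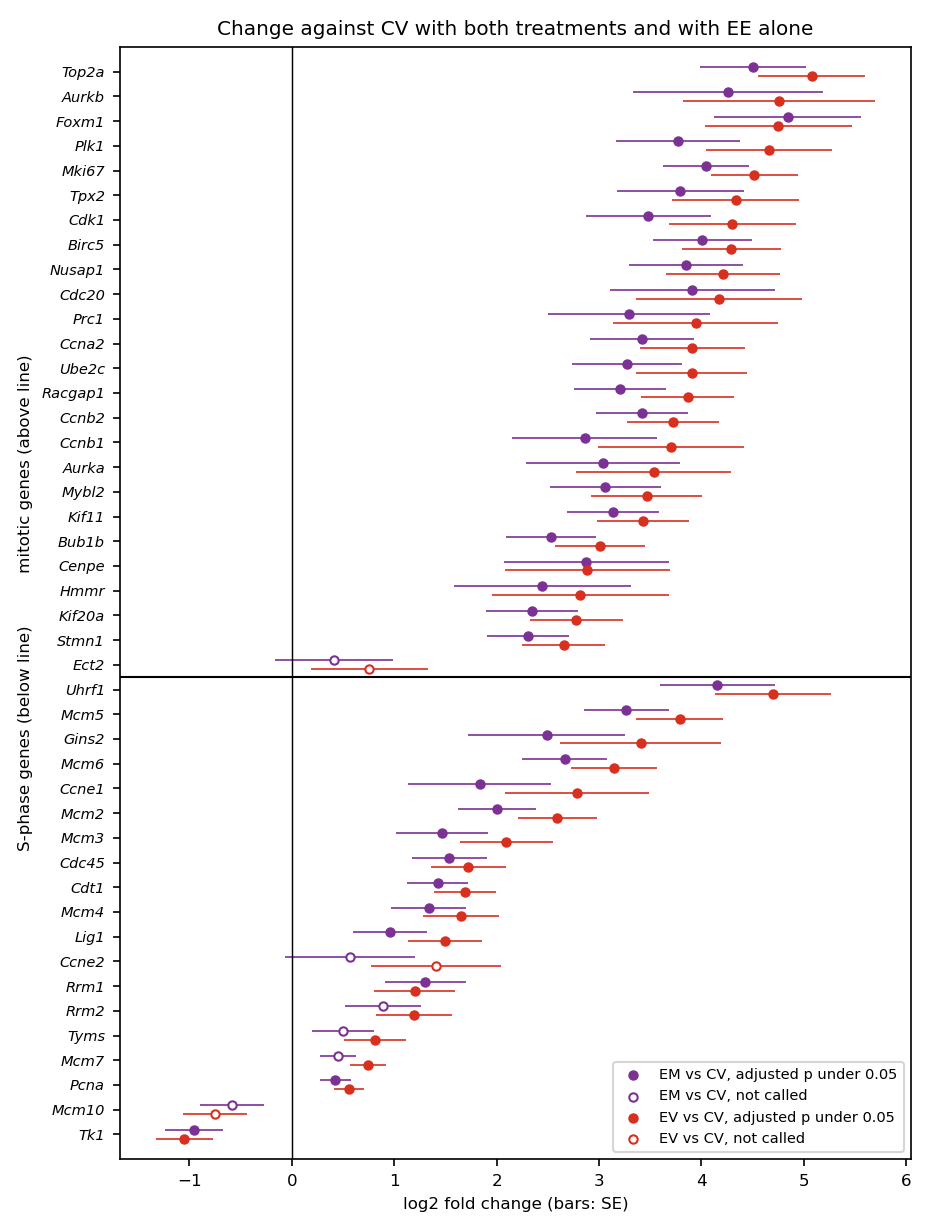
Log2 fold change of each gene (points, with the SE as bars) in EM against CV and in EV against CV, mitotic genes above the line and S-phase genes below it; filled points passed an adjusted p of 0.05. Mitotic genes lie mostly between 2 and 5 in both comparisons, S-phase genes spread from Uhrf1 at 4.70 (EV against CV) to Tk1 at -1.05, and the EM points lie left of the EV points for most genes.

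Both treatments together still left the genes above vehicle. In EM against CV, a comparison that shares the CV libraries with EV against CV, 37 of 44 genes were higher and 1 (Tk1) was lower by edgeR adjusted p, against 20.7% and 20% of all genes. The mitotic genes were higher in 24 of 25 cases with a median log2 fold change of 3.30, and the S-phase genes in 13 of 19 with a median of 1.34. Every EM library lay above every CV library for 30 of the 44 genes, against 19.4% of all genes, and for none did every EM library lie below, against 18.1%. Without EM replicate 1, 30 genes were higher and 1 lower, against 18.1% and 17% of all genes. Mitotic genes then were higher in 23 of 25 cases (median 2.71) and S-phase genes in 7 of 19 (median 0.87). With library totals as the scale and all libraries, 40 genes were higher and 0 lower, against 46.3% and 7.74% of all genes.

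The genes that no longer passed without that library were Mcm3, Pcna, Rrm1, Gins2, Lig1 and Ccne1 of the S-phase genes and Hmmr, a spindle protein. Mcm5 was at 13.9, 3.84, 4.22 and 4.94 CPM in the EM libraries, against 0.356 to 0.884 CPM in the CV libraries. Its log2 fold change in EM against CV was 3.27 ± 0.42 (SE), and 2.63 ± 0.27 (SE) without EM replicate 1, with edgeR adjusted p of 2.48e-05 and 8.39e-06. Pcna was at 62.1, 37.2, 39.3 and 37.9 CPM in the EM libraries, against 30.4 to 37.6 CPM in the CV libraries. Its edgeR adjusted p of 0.0336 in EM against CV was 0.130 without EM replicate 1, 0.0628 without CV replicate 1, 0.0800 without CV replicate 3 and 0.0810 without CV replicate 4. Rrm2, at 20.2, 5.55, 7.11 and 6.07 CPM in the EM libraries against 3.77 to 6.76 CPM in the CV libraries, did not pass with all libraries (edgeR adjusted p = 0.0695) and had 0.470 without EM replicate 1, but 0.0360 without EM replicate 2 and 0.0460 without EM replicate 4. Ccne1 passed narrowly (edgeR adjusted p = 0.0474), and its p was above 0.05 in 11 of the 16 fits that left out a library, 0.167 without EM replicate 1 among them. Mcm7 did not pass (edgeR adjusted p = 0.0548), but had 0.0390 without CV replicate 1 and 0.00357 without EM replicate 4. Tk1 fell by 0.95 ± 0.28 on the log2 scale (SE, edgeR adjusted p = 0.0134), which became 0.0507 without CV replicate 2.

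EE also raised most of the genes in mice that had MI763F. In EM against CM, 35 of the 44 genes were higher and 0 were lower by edgeR adjusted p, against 19.4% and 18.6% of all genes, with median log2 fold changes of 2.50 for mitotic and 1.17 for S-phase genes. Every EM library lay above every CM library for 31 of the 44 genes and below for 0, against 18.6% and 16.8% of all genes. Without EM replicate 1, 25 were higher and 1 (Tk1) was lower, against 16.4% and 16% of all genes, with medians of 2.00 and 0.71. With library totals and all libraries, 39 were higher and 0 lower, against 45.6% and 7.24% of all genes. Tk1 had an edgeR adjusted p of 0.0545 with all libraries, and below 0.05 also without CV replicate 1 or 2 or CM replicate 1 or 2 (0.0369 to 0.0469). Mki67 was at 6.41, 2.20, 1.78 and 2.58 CPM in the EM libraries, against 0.376, 0.449, 0.309 and 0.316 CPM in the CM libraries, with no overlap. Its log2 fold change was 3.14 ± 0.39 (SE, edgeR adjusted p = 2.19e-05), and 2.57 ± 0.26 (SE, edgeR adjusted p = 1.05e-05) without EM replicate 1. Cdk1 (edgeR adjusted p = 0.0137) and Aurkb (0.0127) had 0.0703 and 0.0663 without that library. Mcm7, Pcna and Rrm2 passed with all libraries, and several left-out libraries ended their calls. The edgeR adjusted p of Mcm7 was 0.124 without EM replicate 1 and 0.0579 to 0.0691 without EM replicate 2 or 3 or CM replicate 1, 3 or 4. That of Pcna was 0.0732 without EM replicate 1, 0.0635 without CM replicate 1 and 0.0577 without CM replicate 2. That of Rrm2 was 0.129 without EM replicate 1, 0.0634 without CM replicate 2 and 0.0522 without CM replicate 4. In a fit of the EM and CM libraries alone none of the 3 passed (edgeR adjusted p = 0.0689, 0.0780 and 0.0662).

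MI763F alone changed none of the genes beyond the threshold. In CM against CV, edgeR called 0 of 44 genes, against 0.0929% of all genes called higher and 0% called lower. DESeq2 called 1 gene, Top2a (adjusted p = 0.0389), against 159 higher and 62 lower of all 12918 genes tested, and limma called 0 of the 44. The median log2 fold change was 0.89 over the mitotic genes and 0.16 over the S-phase genes, against -0.00 over all genes tested. Top2a was at 1.2, 1.28, 1.93 and 1.74 CPM in the CM libraries, against 0.997, 0.306, 0.275 and 0.236 CPM in the CV libraries. All CM values of Top2a lay above all CV values, with a log2 fold change of 1.77 ± 0.54 (SE, edgeR adjusted p = 0.253). Ccnb2 was at 2.10, 1.22, 0.926 and 1.26 CPM in the CM libraries, against 0.213, 0.535, 0.550 and 0.530 CPM in the CV libraries, likewise apart, with 1.57 ± 0.45 (SE, edgeR adjusted p = 0.219). Foxm1 gave 2.48 ± 0.75 (SE, edgeR adjusted p = 0.239) and Cdk1 1.61 ± 0.62 (SE, edgeR adjusted p = 0.366), each with overlapping groups. Besides Top2a and Ccnb2, the CM libraries of Mki67, Cdc20 and Mcm6 lay above every CV library, 5 of 44 genes in all, against 2.24% of all genes. None of the 44 had every CM library below every CV library, against 1.9% of all genes.

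**Figure D4:**
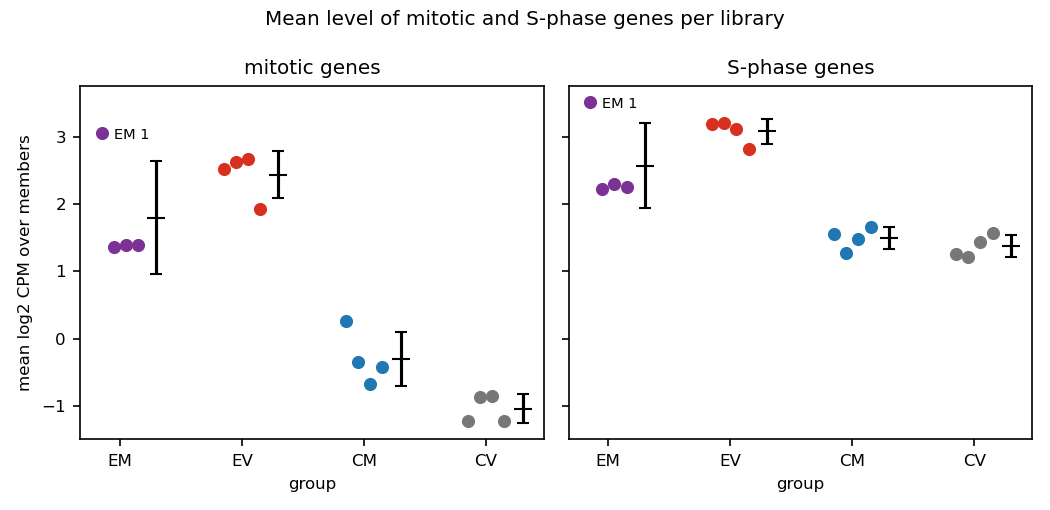
Mean log2 CPM over the 25 mitotic genes (left) and the 19 S-phase genes (right) in each library (points), by group, with the group mean and SD as bars (n = 4 libraries). EM replicate 1 (marked EM 1) lies above all EV libraries in both panels, the other 3 EM libraries lie below all EV libraries, and CM libraries lie above CV libraries in the mitotic panel alone.

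Averaged over genes, the group means ran in the same order for both roles: EV, EM, CM and CV from highest to lowest. The roles differed in whether the CM and CV libraries overlapped. The mean log2 CPM of the mitotic genes was 3.05, 1.35, 1.38 and 1.39 in the EM libraries, 2.52, 2.62, 2.67 and 1.93 in the EV libraries, 0.26, -0.35, -0.68 and -0.42 in the CM libraries and -1.22, -0.86, -0.84 and -1.23 in the CV libraries. CM and CV did not overlap in this mean, whose libraries rest on low counts. The mean log2 CPM of the S-phase genes was 3.51, 2.22, 2.29 and 2.25 in the EM libraries, 3.19, 3.20, 3.11 and 2.81 in the EV libraries, 1.55, 1.27, 1.48 and 1.66 in the CM libraries and 1.26, 1.21, 1.44 and 1.57 in the CV libraries, and there CM and CV overlapped. Both means put the other 3 EM libraries between EV and CM, and EM replicate 1 above EV.

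Whether MI763F lowered the genes in mice under EE depended on EM replicate 1. With all libraries, edgeR called 0 of 44 genes in EM against EV, while 1.51% of all genes were called higher and 0.178% lower. DESeq2 and limma also called 0. In none of the 44 were the 4 EM libraries all above or all below the EV libraries, against 6.56% and 3.98% of all genes. The log2 fold changes were below 0 for 40 of the 44 genes, with a median of -0.47 for mitotic and -0.32 for S-phase genes, against -0.00 over all genes tested. The smallest p belonged to Plk1, with a log2 fold change of -0.89 ± 0.48 (SE, edgeR adjusted p = 0.480), followed by Racgap1 (-0.66 ± 0.38), Mcm7 (-0.30 ± 0.17) and Mcm2 (-0.59 ± 0.35). These 4 had, without EM replicate 1, -1.64 ± 0.43, -1.20 ± 0.33, -0.44 ± 0.17 and -0.93 ± 0.35 (SE), and none passed (edgeR adjusted p = 0.0528, 0.0665, 0.218 and 0.194).

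Without EM replicate 1, edgeR called 6 of the 44 genes lower in EM than in EV and 0 higher, against 0.533% and 2.9% of all genes. These calls follow the choice of a library that was high in the same genes. The medians were then -1.14 for mitotic and -0.93 for S-phase genes. For 30 of the 44 genes, 18 mitotic and 12 S-phase, the other 3 EM libraries all lay below every EV library, against 10.2% of all genes. No other library gave a call in this comparison when left out. The 6 genes were Mcm6, Mcm5, Mki67, Top2a, Birc5 and Stmn1. Mcm6 was at 16.3, 3.84, 4.08 and 4.35 CPM in the EM libraries, against 11.0, 10.6, 9.72 and 8.51 CPM in the EV libraries. EM replicate 1 lay above the EV range and the other 3 EM libraries below it, and the log2 fold change was -0.48 ± 0.37 (SE, edgeR adjusted p = 0.665) with it and -1.28 ± 0.16 (SE, edgeR adjusted p = 0.000824) without it.

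The other 5 genes had the same arrangement of libraries. Top2a was at 22.3, 6.83, 5.95 and 6.18 CPM in the EM libraries, against 15.8, 17.5, 14.8 and 13.2 CPM in the EV libraries. Stmn1 was at 75.1, 20.1, 20.2 and 24.2 CPM in the EM libraries, against 31.9 to 54.0 CPM in the EV libraries. Birc5 was at 20.7, 4.63, 5.42 and 5.80 CPM in the EM libraries, against 7.83 to 13 CPM in the EV libraries. Without EM replicate 1 these 5 had log2 fold changes from -1.28 ± 0.30 (SE, Top2a) to -1.04 ± 0.24 (SE, Mki67), with edgeR adjusted p from 0.0184 (Stmn1) to 0.0303 (Mki67). The same 3 EM libraries still lay above every CV library for 30 of the 44 genes and above every CM library for 31, against 21.1% and 19.9% of all genes.

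**Figure D5:**
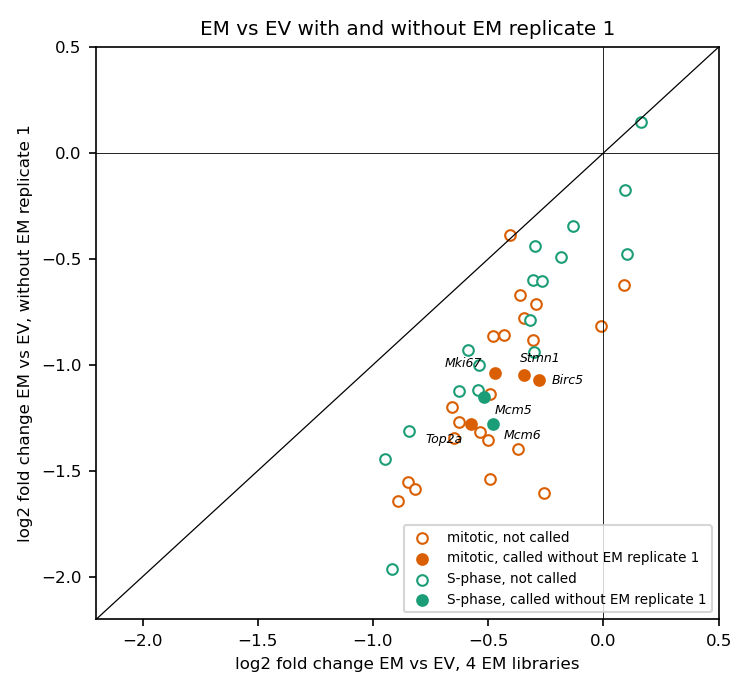
Log2 fold change of each gene in EM against EV with 4 EM libraries (x axis) and without EM replicate 1 (y axis), mitotic genes in orange and S-phase genes in green; filled points passed an adjusted p of 0.05 without that library, and the diagonal marks equal values. Most points lie below the diagonal, and the 6 filled points are Mcm6, Mcm5, Mki67, Top2a, Birc5 and Stmn1.

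Markers of other cells were set beside these values. The sum of the macrophage markers was 3170 CPM in EM replicate 1, 1910 to 2250 CPM in the other 3 EM libraries and 2310 to 2700 CPM in the EV libraries. EM replicate 1 thus lay above every EV library and the other 3 below every EV library. Of the 13 macrophage markers, edgeR called 0 in EM against EV, against 1.51% of all genes called higher and 0.178% lower. Csf1r, the receptor that macrophages need to survive, had a log2 fold change in EM against EV of -0.22 ± 0.24 (SE, edgeR adjusted p = 0.783), and -0.31 (edgeR adjusted p = 0.622) without EM replicate 1. Hepatocyte markers summed to 38200 CPM in EM replicate 1, 49000 to 54700 CPM in the other 3 EM libraries and 34100 to 42200 CPM in the EV libraries. Of them, Cps1, the entry enzyme of the urea cycle, had a log2 fold change in EM against EV of 0.78 ± 0.21 (SE, edgeR adjusted p = 0.0826), and it was called higher without EM replicate 1, at 0.95 (edgeR adjusted p = 0.0131). Endothelial markers summed to 333 CPM in EM replicate 1, 251 to 292 CPM in the other 3 EM libraries and 309 to 357 CPM in the EV libraries. The other 3 lay below every EV library, as for the macrophage sum and for 30 of the 44 genes, while EM replicate 1 lay within the EV range. Cholangiocyte markers summed to 194 CPM in EM replicate 1, 89.7 to 174 CPM in the other 3 and 137 to 203 CPM in the EV libraries. Stellate markers summed to 187 CPM in EM replicate 1, 235 to 272 CPM in the other 3 and 210 to 235 CPM in the EV libraries. Lymphocyte and neutrophil markers (134 CPM in EM replicate 1, 65.7 to 160 CPM in the other 3, 78.3 to 159 CPM in EV) and erythroid markers (2850, 1810 to 4020 and 2530 to 3470 CPM in the same order) overlapped. The part of these cells in the result was not tested.

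The test of whether MI763F acted differently with and without EE gave the same dependence. For the interaction, the log2 fold change of EM against EV minus that of CM against CV, edgeR called 0 of 44 genes, against 0.101% of all genes called higher and 0.031% lower. DESeq2 called 2, Top2a (adjusted p = 0.0182) and Cdk1 (0.0375), both negative. Among all 12918 genes tested DESeq2 called 298 positive and 152 negative, and limma called 0 of the 44. The median was -1.40 for mitotic and -0.49 for S-phase genes, against 0.01 over all genes tested. The smallest edgeR p belonged to Top2a (-2.34 ± 0.67, adjusted p = 0.140), Ccnb2 (-1.87 ± 0.58, 0.166), Cdk1 (-2.43 ± 0.80, 0.185) and Foxm1 (-2.39 ± 0.92, 0.259; SE throughout). Without EM replicate 1, edgeR called 9 genes negative and 0 positive, against 0.394% and 1.21% of all genes. They were Mki67, Top2a, Ccnb2, Cdk1, Cdc20, Birc5 and Stmn1 of the mitotic genes and Mcm5 and Mcm6 of the S-phase genes. Without that library Top2a had an interaction of -3.04 ± 0.46 (SE, edgeR adjusted p = 0.00780) and Ccnb2 of -2.45 ± 0.45 (SE, edgeR adjusted p = 0.0178), while Foxm1, at -3.10 ± 0.81 (SE), did not pass (edgeR adjusted p = 0.0720). Mcm6 had an interaction of -2.09 ± 0.23 (SE, edgeR adjusted p = 0.000665) and Cdk1 of -3.20 ± 0.64 (SE, edgeR adjusted p = 0.0295).

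Further genes of both programmes were listed apart from the 47. Of 47 measured among 79 other mitotic genes, 36 were higher, 1 lower and 10 not called in EV against CV by edgeR adjusted p, against 25.5% of all genes called higher and 24.9% lower, with a median log2 fold change of 2.57. Mad2l1, the spindle checkpoint protein MAD2, averaged 16 ± 6.11 CPM in EM, 18.8 ± 2.81 CPM in EV, 2.13 ± 0.42 CPM in CM and 1.57 ± 0.75 CPM in CV libraries (SD, n = 4 each). Its log2 fold change in EV against CV was 3.57 ± 0.32 (SE, edgeR adjusted p = 4.40e-07). Fam83d, which helps chromosomes align on the spindle, had 6.47 ± 0.64 (SE), and Incenp, the scaffold of the passenger complex, 2.34 ± 0.31 (SE). Pttg1 (securin), which holds separase inactive until anaphase, was the 1 gene that fell, with -0.79 ± 0.15 (SE, edgeR adjusted p = 0.000563).

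Of 44 measured among 60 other S-phase genes, 25 were higher, 1 lower and 18 not called in EV against CV, against the same shares of all genes, with a median log2 fold change of 1.08. Fen1, the flap nuclease of lagging-strand synthesis, had 2.28 ± 0.36 (SE, edgeR adjusted p = 8.33e-05), and Dnmt1, the maintenance methyltransferase that UHRF1 brings to DNA, 1.40 ± 0.18 (SE, edgeR adjusted p = 1.13e-05). The E2F factors that are themselves made in S phase were higher: E2f1 by 1.5 ± 0.34, E2f2 by 2.84 ± 0.48 and E2f8 by 2.00 ± 0.44 on the log2 scale (SE, edgeR adjusted p = 0.00189, 0.000160 and 0.00156). In EM against CV the counts were 35 higher and 1 lower of 47 other mitotic genes and 19 higher and 1 lower of 44 other S-phase genes, against 20.7% and 20% of all genes. They were 32 and 1 of the mitotic and 12 and 1 of the S-phase genes without EM replicate 1, against 18.1% and 17% of all genes. In EM against EV edgeR called 0 in both lists, against 1.51% of all genes called higher and 0.178% lower. Among the smallest p there were Mms22l, which protects stalled forks, with a log2 fold change of -1.12 ± 0.46 (SE), Ncapd2, a condensin subunit, with -0.85 ± 0.35 (SE), and Cenpk, a kinetochore protein, with -0.84 ± 0.40 (SE). Mms22l had -1.44 (edgeR adjusted p = 0.146) and Cenpk -1.08 (edgeR adjusted p = 0.224) without EM replicate 1. Ncapd2 was called lower in that comparison without EM replicate 1, with a log2 fold change of -1.26 (edgeR adjusted p = 0.0483).

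Genes that govern entry into and exit from the cycle were mixed. Of 23 measured among 25, 7 were higher, 3 lower and 13 not called in EV against CV, with a median log2 fold change of 0.27. The count higher lies near the 25.5% of all genes called higher, and 24.9% were called lower. Cdkn1a (p21), an inhibitor of CDKs, was at 119, 94.5, 104 and 113 CPM in the EV libraries, against 15.1, 8.17, 13.9 and 8.08 CPM in the CV libraries, a log2 fold change of 3.25 ± 0.60 (SE, edgeR adjusted p = 0.000492). Cdkn2c (p18), an inhibitor of CDK4 and CDK6, had 1.47 ± 0.16 (SE, edgeR adjusted p = 1.92e-06). Of the pocket proteins, Rbl1 (p107) was higher with 1.95 ± 0.30 (SE) and Rbl2 (p130), the form of resting cells, was lower with -0.58 ± 0.16 (SE, edgeR adjusted p = 0.00643). Rb1 did not pass, with 0.29 ± 0.18 (SE). E2f5, a repressive E2F, was lower with -0.47 ± 0.15 (SE, edgeR adjusted p = 0.0151), and Wee1, the kinase that holds CDK1 inactive, with -1.83 ± 0.57 (SE, edgeR adjusted p = 0.0145). E2f3 (0.27), E2f4 (0.27), Lin9 (0.35), Lin37 (0.01) and Lin52 (-0.12), the last 3 of the MuvB core, had edgeR adjusted p above 0.05 in EV against CV. In EM against EV edgeR called 0 of the 23, against 1.51% of all genes called higher and 0.178% lower. The smallest p there belonged to Cdkn2c, with a log2 fold change of -0.37, and E2f4, with -0.30 ± 0.13 (SE). None of the 23 was called by edgeR without EM replicate 1, with Cdkn2c at -0.25 and E2f4 at -0.38. Of all genes, 2.9% were then called higher and 0.533% lower.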

How the data were processed

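Poly(A) RNA of mouse liver was measured in 16 libraries, and the authors deposited one table of estimated counts per gene. Build GRCm39 and the tools STAR and Salmon are named per the submitters' processing notes. Annotation, counting step and strand setting are not given in these sources. As deposited, the values are whole numbers that look rescaled by gene length, and they were used as counts. Symbols came from GENCODE M21 (12692 of 13006 rows matched), and promoter windows from RefSeq, build GRCm38.p6; no genome of the files' build was used.

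Genes were filtered with filterByExpr (12918 kept), scaled by TMM (factors 1.1 to 1.23 with EE and 0.832 to 0.91 without) and tested with edgeR 4.0.16 (glmQLFit, robust, all 4 groups in one fit, 12 residual degrees of freedom, biological coefficient of variation 0.284), with limma 3.58.1 and DESeq2 1.42.0 as alternatives, in R 4.3.3 and Python 3.11.15. An SE was taken as log2 fold change over root F. CPM use TMM-scaled totals, and log2 CPM a prior count of 2. The fits were also run on simulated counts with known changes in a small part of the genes. Those counts held neither the broad shift of the EE groups nor an outlying library, and the outcome is not reported here. No pair of libraries shared more than 3.24% equal values, and 0 per-sample columns were left unused. Totals of 14115384 to 21473227 limit precision for genes with few counts.

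The 6 comparisons were EV with CV, CM with CV, EM with EV, EM with CV, EM with CM and the interaction. EV, CM and EM against CV share the CV libraries, and EM against EV shares the EV libraries with EV against CV. Members and lists (other mitotic, other S-phase, upstream genes and cell type markers) were chosen with earlier results of these data known. Named were a fixed set of 16 members, the 4 mitotic and 4 S-phase members with the smallest p in EV against CV, the 4 with the smallest p in CM against CV, EM against EV and the interaction, every member not higher in EV against CV, and for each other list the 3 genes with the smallest p in EV against CV, the 2 in EM against EV and its E2f, Lin and Rb family members. Pttg1, Wee1, Afmid and genes that lost or gained a call were named after their values were seen. Some genes that this rule picks are not reported here. Alternatives were other scalings, filters and tools, only the groups compared, a replicate block and each library left out. A further dose of MI763F was not analysed here.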

Additional observations from a re-analysis of the deposited data

Results flagged for a closer look

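In each group of 4 libraries, a library whose gap to the nearest of the others took up more of the group's range than Dixon's 95% critical value allows was marked. Of 184 sets of values, 41 were marked, where chance marks about 1 in 20. EM replicate 1 was the highest of its group in 29 of the 41. Its summed level was 295 CPM over the mitotic genes (others 83.2 to 87.7) and 297 CPM over the S-phase genes (others 139 to 159). The values in CPM were Uhrf1 6.89 (others 2.09 to 2.62), Mcm2 6.83 (others 3.02 to 3.49), Mcm5 13.9 (others 3.84 to 4.94), Cdt1 6.78 (others 3.06 to 3.6), Rrm2 20.2 (others 5.55 to 7.1), Mcm4 6.99 (others 2.62 to 2.98) and Mcm6 16.3 (others 3.84 to 4.35) CPM. Next came Pcna 62.2 (others 37.2 to 39.3), Rrm1 24.8 (others 7.86 to 9.19), Lig1 9.56 (others 3.48 to 4), Ube2c 18.2 (others 4.7 to 6.55), Kif20a 5.71 (others 2.09 to 2.62), Cdc20 16.5 (others 2.13 to 2.42) and Birc5 20.7 (others 4.64 to 5.8) CPM. They were joined by Cdk1 22.3 (others 4.83 to 6.44), Hmmr 4.33 (others 0.533 to 1.07), Aurkb 13 (others 2.26 to 3.9), Top2a 22.3 (others 5.95 to 6.83), Racgap1 7.1 (others 2.07 to 2.9), Tpx2 6.57 (others 1.34 to 1.95) and Aurka 6.78 (others 0.976 to 1.72) CPM. The remaining genes were Ccna2 9.02 (others 2.38 to 3.44), Stmn1 75.1 (others 20.1 to 24.2), Plk1 6.46 (others 1.64 to 1.88), Ccnb2 9.93 (others 2.89 to 3.78), Prc1 9.24 (others 2.52 to 2.81) and Ccnb1 6.25 (others 1.5 to 2.13) CPM.

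The other 12 were spread over the EV, CM and CV groups, mostly at low levels. EV replicate 4 had the lowest S-phase sum, 186 CPM (others 225 to 228), and EV replicate 2 the highest Ccne2, 3.45 CPM (others 2.11 to 2.31). In CM, replicate 1 was highest for Prc1 at 3.23 CPM (others 0.231 to 0.684) and for Kif11 at 0.451 CPM (others 0.309 to 0.321), and replicate 3 was highest for Mybl2 at 0.926 CPM (others 0.158 to 0.225). In CV, replicate 1 was highest for Top2a at 0.997 CPM (others 0.236 to 0.306) and lowest for Birc5 at 0.356 CPM (others 0.611 to 0.648) and for Ccnb2 at 0.214 CPM (others 0.531 to 0.55). CV replicate 2 was highest for Aurkb at 1.07 CPM (others 0 to 0.118) and for Cenpe at 0.764 CPM (others 0.0589 to 0.142). CV replicate 3 was highest for Ccnb1 at 1.1 CPM (others 0.0712 to 0.236), and CV replicate 4 was lowest for Ccna2 at 0.177 CPM (others 0.458 to 0.498). No cause was tested.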

How the results depend on the processing

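Over the alternatives without a left-out library, the number of the 44 genes called stayed between 37 and 43 in EV against CV (41 with the settings of the report), 34 and 40 in EM against CV (38) and 28 and 39 in EM against CM (35), and it was 0 in EM against EV under each. Of all genes, these alternatives other than library totals called 3178 to 3390 higher and 3138 to 3332 lower in EV against CV. In EM against CV they called 2374 to 2789 and 2417 to 2707, and in EM against CM 2233 to 2594 and 2137 to 2597. In EM against EV they called 181 to 469 and 20 to 90. DESeq2 called 1 gene in CM against CV and 2 in the interaction. Of all 12918 genes tested it called 159 higher and 62 lower in CM against CV, and 298 and 152 in the interaction. With each library left out in turn the counts were 39 to 43 in EV against CV, 0 to 0 in CM against CV, 0 to 6 in EM against EV, 31 to 39 in EM against CV, 26 to 37 in EM against CM and 0 to 9 in the interaction, and the extremes of EM against EV and of the interaction came without EM replicate 1. Of all genes, these fits called 2931 to 3336 higher and 2937 to 3247 lower in EV against CV, and 4 to 31 and 0 to 8 in CM against CV. They called 34 to 376 and 2 to 69 in EM against EV, and 2346 to 2744 and 2197 to 2643 in EM against CV. In EM against CM they called 2120 to 2560 and 2075 to 2475, and in the interaction 7 to 157 and 2 to 51. The highest numbers in EM against EV and the interaction again came without EM replicate 1. The median log2 fold change of mitotic genes minus that of S-phase genes was 2.25 in EV against CV (left-out range 2.13 to 2.59), 0.73 in CM against CV (0.40 to 0.95, and 1.41 with only the groups compared), -0.15 in EM against EV (-0.21 to -0.01), 1.96 in EM against CV (1.85 to 2.48), 1.33 in EM against CM (1.25 to 1.5) and -0.92 in the interaction (-1.15 to -0.62). The cause of these shifts was not tested.

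Library totals in place of TMM moved the median of all genes by 0.49 in EV against CV, 0.37 in EM against CV, 0.38 in EM against CM and -0.11 in EM against EV. They raised the share of all genes called higher to 54.6% in EV against CV and cut that called lower to 10.3%, against 25.5% and 24.9% with TMM, so the counts of members under them are to be read against those shares. Of single genes, 2333 values kept their direction and side of the threshold, 50 gained a call and 45 lost one. A sign turned in 6 values, none of them called: Cdc20 in EM against EV (left-out range -1.61, without EM replicate 1, to 0.0498, without EV replicate 3; 0.0169 without EM replicate 2 and 0.00919 without EM replicate 3), Ect2 in EM against CV (range -0.0227, without EM replicate 1, to 0.91) and Ect2 in EM against CM (range -0.31, without EM replicate 1, to 0.59; -0.0793 without CM replicate 3).

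Deviations of same-numbered libraries of different groups had r from -0.0524 to 0.0957 over 24 pairs, 0 of them over 0.1. Differently numbered libraries had r from -0.146 to 0.0919 over 72 pairs. These values showed no pairing by number, but they cannot exclude a shared batch. With a replicate block the counts were 42 in EV against CV, 0 in CM against CV, 0 in EM against EV, 36 in EM against CV, 36 in EM against CM and 0 in the interaction, and the median differences were 2.23, 0.63, -0.15, 1.94, 1.27 and -0.91 in that order. Of all 12918 genes, the block called 3255 higher and 3138 lower in EV against CV, 6 and 0 in CM against CV, and 236 and 24 in EM against EV. It called 2632 and 2524 in EM against CV, 2451 and 2361 in EM against CM, and 67 and 12 in the interaction. The block gave Mcm10 in EV against CV an edgeR adjusted p of 0.0261 and Mcm7 in EM against CV one of 0.0236, both then called, and Pcna in EM against CV one of 0.0535. Depth limits the mitotic genes most, since 23 of 25 averaged under 1 CPM in the CV libraries.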

Other observations

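Markers of other liver cells were also called in EV against CV, and the part of these cells in the results was not tested. Of the macrophage markers, Clec4f, a receptor of Kupffer cells, had a log2 fold change of 1.93 ± 0.16, Csf1r of 2.74 ± 0.25, C1qb, a complement subunit, of 2.31 ± 0.23 and Cd68 of 2.20 ± 0.25 (SE, edgeR adjusted p = 2.15e-07, 6.17e-07, 9.75e-07 and 3.70e-06). Ptprc (CD45), which all leukocytes carry, had 2.56 ± 0.28, the B-cell receptor chains Cd79a and Cd79b 2.46 ± 0.49 and 2.33 ± 0.37, and S100a9, a neutrophil protein, 3.26 ± 0.59 (SE). The endothelial markers Cdh5, Lyve1 and Stab2 had 1.83 ± 0.29, 1.65 ± 0.29 and 1.03 ± 0.18, and the collagens Col1a1, Col3a1 and Col1a2 had 1.48 ± 0.20, 0.72 ± 0.14 and 0.82 ± 0.18 (SE). Not all 12 stellate markers rose, and their sum was 210 to 235 CPM in EV and 185 to 345 CPM in CV libraries. Sox9 and Spp1, which mark bile ducts, had 3.67 ± 0.48 and 1.84 ± 0.22 (SE). The globins Hbb-bt, Hba-a1 and Hba-a2 had 1.32 ± 0.27, 1.01 ± 0.23 and 1.14 ± 0.27, and Klf1, the erythroid transcription factor, fell with -2.30 ± 0.41 (SE). Most but not all hepatocyte markers were called lower. Of those, Apoa1, an apolipoprotein of HDL, had -2.88 ± 0.22, Cps1, the entry enzyme of the urea cycle, -1.82 ± 0.22, Ttr, the carrier of thyroid hormone, -1.67 ± 0.15 and Cebpa, a hepatocyte transcription factor, -1.63 ± 0.19 (SE). In EM against EV edgeR called none of these with all libraries, and without EM replicate 1 it called Cps1 higher, at 0.95 (edgeR adjusted p = 0.0131).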
